A study of Homo sapiens with 16 samples.

Results

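Lipid droplets are the organelles in which cells keep triglyceride and sterol esters, and 8 genes that build, coat or break down these stores are described here in SK-N-BE(2), an established line of human neuroblastoma cells. PLIN2, PLIN3, HILPDA, PNPLA2, ABHD5, DGAT1, DGAT2 and LPIN1 were taken by symbol from a table of 63187 genes, and each symbol matched 1 row. The list was drawn up with earlier results of these data known, although the rule itself uses only symbols. The question for these genes was whether their mRNA differed when a form of HIF-2α was expressed, and whether it differed between the batches of the experiment.

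RNA was sequenced from 16 libraries in 4 groups of 4. The group called WT is wild-type SK-N-BE(2) cells. The other 3 groups are the same line transfected with HIF-2α, the oxygen-regulated transcription factor encoded by EPAS1. FL received the full-length protein. NCTAD and cIDR received the forms written ΔN-CTAD and Δc-IDR in the design text, where the labels of the samples omit the Δ. All groups grew in 21% oxygen, 5% CO2 and 10% fetal bovine serum at 37 °C, so none of the libraries came from cells held in low oxygen according to the labels. The residues missing from the constructs, the vector, the time after transfection and any empty-vector treatment of WT are not stated, so an effect of transfection and an effect of HIF-2α cannot be told apart against WT. Each group has 1 library in each of the batches 1 to 4. The labels give a batch only as a number equal to the replicate number. They do not say whether the 4 are separate cultures, so p-values measure the spread between these libraries, which may be technical.

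A droplet is a core of neutral lipid under a single layer of phospholipid, coated by perilipins such as PLIN2 and PLIN3. LPIN1 and the DGAT enzymes make the triglyceride of the core, while PNPLA2, with its coactivator ABHD5, starts to release fatty acids from it and HILPDA inhibits PNPLA2. HILPDA and PLIN2 are known as genes that rise in many cell types when oxygen is low, when HIF proteins are stable, and droplets then often accumulate.

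Promoter sequences of 2 genes are shown because PLIN2 and PLIN3, the perilipins of the set, moved in opposite directions between batches. Searched were the 250 bases before a RefSeq transcription start on GRCh38.p14. Printed is the part of each window that lies outside exons of GENCODE 29, 5′ to 3′ on the minus strand, the strand of both genes. Capitals mark ACGTG or GCGTG, the core of the hypoxia response element, on either strand (CACGT or CACGC on the other strand). The PLIN2 stretch lies inside the annotated span of the gene (chromosome 9, 19108375 to 19149290, GRCh38), just before 1 of its first exons, and the PLIN3 stretch lies just upstream of the annotated span (chromosome 19, 4838341 to 4867768).
PLIN2, chr9:19127577-19127742: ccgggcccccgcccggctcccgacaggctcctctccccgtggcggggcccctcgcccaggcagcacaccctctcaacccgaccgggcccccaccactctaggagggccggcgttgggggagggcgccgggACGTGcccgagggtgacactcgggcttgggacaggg
PLIN3, chr19:4867769-4867917: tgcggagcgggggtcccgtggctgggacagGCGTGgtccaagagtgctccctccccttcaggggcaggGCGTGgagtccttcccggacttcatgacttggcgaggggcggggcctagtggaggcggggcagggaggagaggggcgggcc

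The whole PLIN2 window, chr9:19127493-19127742, held 4 matches, whose first bases lie 120, 85, 69 and 68 bases before the start, and 1 of them is complete in the printed stretch. Those at 69 and 68 are both strands of 1 palindrome and overlap. The PLIN3 window, chr19:4867668-4867917, held 3 matches, at 220, 182 and 35 bases before the start, and the printed stretch holds 2. Of the 35116 windows of this length in the table, 43.2% held at least 1 match and 3.22% held 4 or more. Windows were found for 5 of the 8 genes (PLIN2, PLIN3, PNPLA2, ABHD5 and LPIN1), and 5 of their 9 windows held a match, where 2 overlapping windows of ABHD5 share 1 site. A match is a run of letters and not a measured binding site.

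Per unit of transcript length, LPIN1 had the highest mean of the 8 over the libraries and DGAT2 the lowest. LPIN1 was above HILPDA in 14 of 16 libraries, and in batch 2 their means were 36.4 and 36.2 TPM. Mean TPM (transcripts per 1 M, that is mega, transcripts, scaled to transcript length) over the 16 libraries was 36.4 ± 3.95 (SD, n = 16) for LPIN1, a phosphatidate phosphatase, and 27.1 ± 6.05 for HILPDA. PLIN2 had a mean TPM of 14.8 ± 1.37, PNPLA2 12.3 ± 1.36, DGAT1 11.7 ± 1.36 and PLIN3 10.3 ± 2.56. In batch 2 the mean TPM was 14.2 for PLIN3 and 13.3 for PLIN2, so their order turned there. ABHD5 had 6.57 ± 1.23 and DGAT2, which makes triglyceride at the endoplasmic reticulum and the droplet surface, had 2.45 ± 0.453. Between neighbours in this order the ranges over libraries were separate only between HILPDA and PLIN2 and between ABHD5 and DGAT2. PLIN3 was above ABHD5 within each of the 16 libraries although their ranges overlap, and DGAT1 was above PLIN3 in 10 of 16. All 8 genes passed the filter on low counts.

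The 16 libraries held 38.6 to 56.1 M (mega) estimated counts each, with 47.8 to 55.3 M in batch 2, and 19530 genes were tested. EPAS1, which tells WT from transfected libraries but not 1 construct from another, had 18.2 ± 6.89 CPM (counts per 1 M counts, SD, n = 4) in WT. It had 2609 ± 906 CPM in FL, 2851 ± 1330 in NCTAD and 4484 ± 1740 in cIDR, counting endogenous and transfected sequence together. Sympathetic lineage markers summed to between 6839 and 8907 CPM, although TH, the first enzyme of catecholamine synthesis, was low at 0.856 to 10.2 CPM. The fat cell markers ADIPOQ, LEP, FABP4 and CIDEC had at most 3 counts in any library. Only 2 of 8 fat cell markers, LIPE and PLIN1, passed the filter.

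PLIN2, the perilipin that coats droplets in most cell types, did not differ detectably between the 4 groups. In batches 1 to 4 its CPM was 19.1, 16.4, 18.6 and 17.8 in WT and 19.9, 15.6, 18.3 and 20.5 in FL. It was 20.1, 15.7, 17.4 and 17.6 in NCTAD and 21.0, 16.7, 18.9 and 19.5 in cIDR. In every group the library of batch 2 was the lowest, and the ranges of the 4 groups overlapped. PLIN2 differed from WT by a log2 fold change of 0.04 ± 0.06 (SE) in FL, −0.03 ± 0.06 in NCTAD and 0.08 ± 0.06 in cIDR. Adjusted p-values from edgeR's quasi-likelihood test with the batch in the model were 0.937, 1.00 and 0.999. The 95% intervals of these differences were −0.08 to 0.17, −0.15 to 0.10 and −0.04 to 0.20. The sign of PLIN2 turned on the log2(TPM + 1) scale in FL (−0.0024) and cIDR (−0.00014), and in FL without its library of batch 4 (−0.019). The cIDR library was above the WT library of its batch in 4 of 4 batches, as it was for 10.6% of all tested genes.

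None of the 8 genes was called in any of the 6 comparisons between groups at an adjusted p under 0.05. The background was also thin. Called genes were 0.102% of those tested in FL against WT, 0.456% in NCTAD against WT and 0.486% in cIDR against WT. They were 0% in NCTAD against FL, 0.0307% in cIDR against FL and 0.00512% in cIDR against NCTAD. At an unadjusted p under 0.05 these 6 comparisons held 998, 1164, 1064, 721, 718 and 419 genes. The log2 fold changes of the 8 genes lay between −0.08 and 0.12 in FL against WT, between −0.05 and 0.23 in NCTAD against WT and between −0.10 and 0.22 in cIDR against WT. Their medians were 0.03, 0.03 and 0.03, beside 0.01, 0.02 and 0.01 over all tested genes. The 3 comparisons with WT share their WT libraries. Between constructs, the 8 values lay between −0.13 and 0.14.

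HILPDA, the inhibitor of PNPLA2, had the widest of these differences. Its CPM in batches 1 to 4 was 16.4, 22.4, 16.3 and 18.1 in WT and 16.9, 27.4, 17.6 and 17.3 in FL. It was 22.3, 25.2, 19.9 and 18.4 in NCTAD and 20.4, 31.0, 17.8 and 17.5 in cIDR. NCTAD libraries were above the WT library of their batch in 4 of 4 batches, FL and cIDR libraries in 3 of 4. In NCTAD against WT, 8.86% of all tested genes were higher in 4 of 4 batches. The log2 fold change against WT was 0.23 ± 0.09 in NCTAD (95% interval 0.05 to 0.42, edgeR adjusted p 0.649). It was 0.22 ± 0.09 in cIDR (0.04 to 0.41, adjusted p 0.787) and 0.10 ± 0.09 in FL (−0.09 to 0.28, adjusted p 0.924). With 1 library left out HILPDA was at 0.16 to 0.30 in NCTAD, 0.14 to 0.29 in cIDR and 0.05 to 0.17 in FL. Without the libraries of batch 2 the values for HILPDA were 0.24, 0.12 and 0.0045 in NCTAD, cIDR and FL. Annotated transcripts AC010655.4 and AC010655.2 share the strand and part of the span of HILPDA (chromosome 7, 128455849 to 128458418, GRCh38). The estimated count of HILPDA was off a whole number by more than 0.01 in 16 of 16 libraries. How reads were split between HILPDA and these transcripts is uncertain and was not tested.

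The enzymes and cofactors of lipolysis did not pass the test between groups either. PNPLA2, the lipase that removes the first fatty acid from triglyceride, had 15.1, 18.0, 17.8 and 16.1 CPM in WT and 18.0, 18.3, 17.7 and 18.3 CPM in NCTAD in batches 1 to 4. The 4 NCTAD values lie within a narrower band than the WT values, which reach almost as high. The log2 fold change of PNPLA2 in NCTAD against WT was 0.11 ± 0.07 (edgeR adjusted p 0.950), 0.06 (without WT of batch 1) to 0.14 with 1 library left out and −0.06 on the TPM scale. ABHD5 ranged from 6.93 to 12.1 CPM over all libraries, and group ranges overlapped.

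LPIN1, DGAT1 and DGAT2, the genes of triglyceride synthesis among the 8, did not pass the test between groups. LPIN1 had 147.3, 114.5, 124.1 and 117.1 CPM in WT and 139.7, 109.4, 108.1 and 111.4 CPM in cIDR in batches 1 to 4. The cIDR library was the lower one in 4 of 4 batches, as it was for 7.15% of tested genes, but the ranges overlapped. LPIN1 differed in cIDR against WT by −0.10 ± 0.06 (95% interval −0.23 to 0.03, edgeR adjusted p 0.999). DGAT1 ranged from 11.9 to 15.5 CPM and DGAT2 from 3.06 to 4.65 CPM over the 16 libraries, with overlapping groups. PLIN3, the perilipin that moves from the cytosol to new droplets, differed in cIDR against WT by 0.14 ± 0.09 (adjusted p 0.999). Batch 1 carried most of this: the cIDR library of PLIN3 was above its WT library by 0.47 on the log2 CPM scale there, and by 0.04, −0.02 and 0.05 in batches 2, 3 and 4. Without the cIDR library of batch 1 the difference was 0.05.

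**Figure D1:**
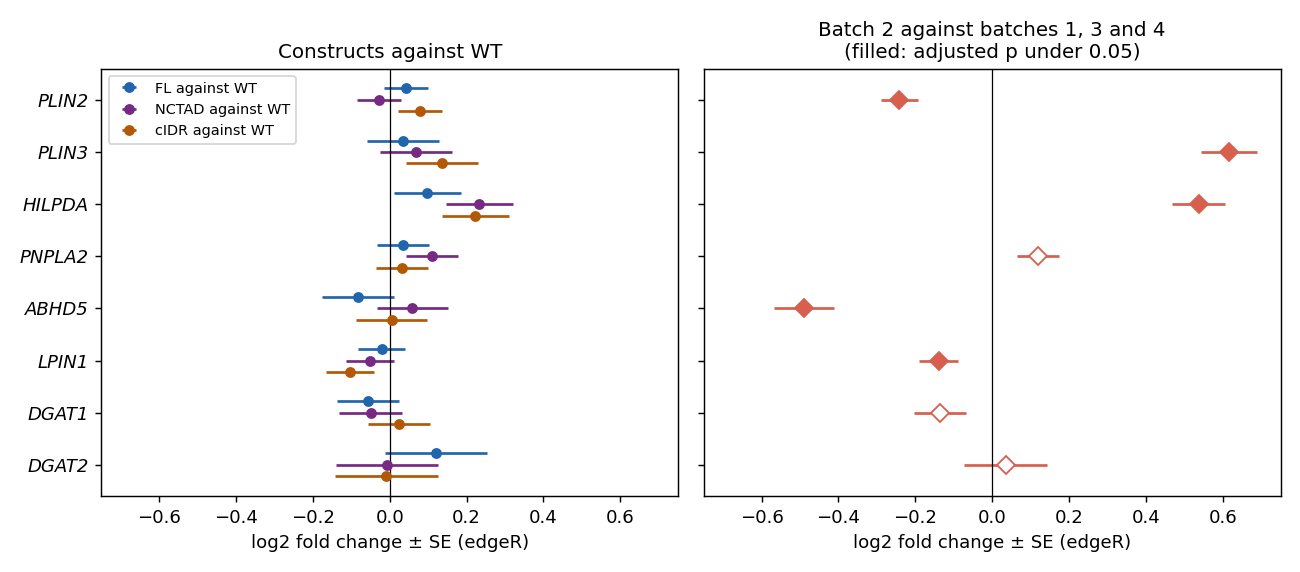
Log2 fold change ± SE (horizontal axes, edgeR with group and batch) of the 8 genes for each construct against WT (left) and for batch 2 against batches 1, 3 and 4 (right, filled where the adjusted p was under 0.05). The construct values lie between −0.10 and 0.23 and those of batch 2 between −0.49 and 0.62.

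In batch 2 against the other batches together, 5 of the 8 genes were called, 2 of them higher and 3 lower. In this comparison 53.9% of all tested genes were called, 27.7% higher and 26.1% lower, so the count is near the background and is not a result about droplet genes as a set. The median log2 fold change was −0.05 for the 8 genes and 0.03 for all tested genes. The directions are by gene: the perilipins split, and the 2 genes around PNPLA2 split.

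PLIN3 rose most, with 17.7 to 20.1 CPM in batch 2 (median 19.4) against 10.9 to 16.4 CPM in the other 12 libraries. In WT cells alone it had 19.6 CPM in batch 2 and 11.8, 12.4 and 10.9 in batches 1, 3 and 4. The batch 2 libraries do not overlap with the rest. Its log2 fold change was 0.62 ± 0.07 (edgeR adjusted p 5.70e-06). HILPDA rose by 0.54 ± 0.07 (adjusted p 1.12e-05), with 22.4 to 31.0 CPM in batch 2 against 16.3 to 22.3 CPM elsewhere, also without overlap. Of all tested genes, 14.4% were higher in batch 2 without overlap.

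ABHD5, the coactivator of PNPLA2, fell most. It had 6.93 to 8.40 CPM in batch 2 and 8.30 to 12.1 CPM elsewhere, so that 1 library outside batch 2, the FL library of batch 1, lay within the batch 2 range. Its log2 fold change was −0.49 ± 0.08 (edgeR adjusted p 8.88e-05), and −0.32 on the log2(TPM + 1) scale with limma (adjusted p 0.0357). PLIN2 fell by 0.24 on the log2 scale (SE 0.05, adjusted p 0.000549), with 15.6 to 16.7 CPM in batch 2 and 17.4 to 21.0 CPM elsewhere. These ranges do not overlap, as for 14.6% of tested genes in the lower direction. PLIN2 thus moved opposite to PLIN3.

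LPIN1 passed the test by little, at −0.14 ± 0.05 (edgeR adjusted p 0.0301), and 3 of the 12 other libraries lay below the highest of batch 2. On the TPM scale its difference was 0.0069, and it lost its call when the batch 2 library of WT, FL, NCTAD or cIDR was left out, with adjusted p-values of 0.0986, 0.0562, 0.0803 and 0.0588. LPIN1 was not called against batch 3 alone (−0.04, edgeR adjusted p 0.582) or batch 4 alone (−0.09, 0.261). Its highest library was that of batch 1 in WT, NCTAD and cIDR (147.3, 138.9 and 139.7 CPM). In FL it was that of batch 4 (133.7 CPM, beside 124.4 CPM in batch 1). Against the other batches together, PNPLA2 (0.12 ± 0.05, adjusted p 0.0779), DGAT1 (−0.14 ± 0.07, 0.101) and DGAT2 (0.04 ± 0.11, 0.801) did not pass. With 1 library left out PNPLA2 was at 0.07 (without cIDR of batch 2) to 0.15, and it passed without WT of batch 3 (adjusted p 0.0479) or without FL of batch 1 (0.0381). The intervals of the 3 were 0.00 to 0.24, −0.28 to 0.01 and −0.19 to 0.27.

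**Figure D2:**
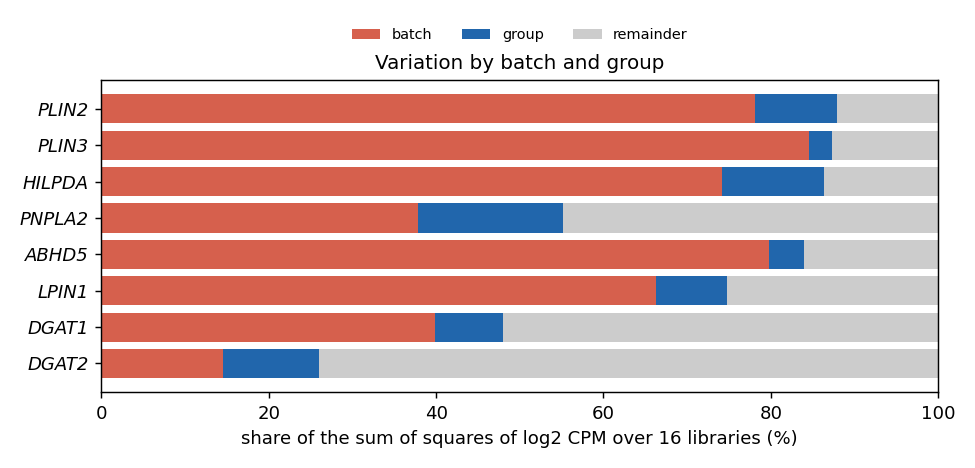
Share of the sum of squares of log2 CPM over the 16 libraries (horizontal axis, percent) due to batch, group and the remainder, for each of the 8 genes. Batch holds 84.6% for PLIN3 and 78.1% for PLIN2, and group holds at most 17.4% (PNPLA2).

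Batch accounted for more of the variation than group in each of the 8 genes. The share of batch was 84.6% for PLIN3, 79.7% for ABHD5, 78.1% for PLIN2, 74.2% for HILPDA and 66.3% for LPIN1. It was 39.9% for DGAT1, 37.8% for PNPLA2 and 14.5% for DGAT2. Group held 2.76% to 17.4%. These shares describe the libraries and carry no test. A factor without any effect also takes up some of the sum of squares. The same shares were not worked out over all tested genes, of which 53.9% were called in batch 2. The pattern is therefore not a result about droplet genes as a set.

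Several measures moved with batch 2 beside these genes, and their part in the differences was not tested. Of 27 genes of a hypoxia response list, 25 were called higher in batch 2 and none lower, beside 27.7% and 26.1% of all tested genes, with a median log2 fold change of 1.40 against 0.03 over all genes. The 2 that were not called were SLC2A1, a glucose transporter, at 0.05 (adjusted p 0.678) and LDHA, lactate dehydrogenase, at −0.11 (0.104), both picked out after their values were seen. A larger batch 2 difference than that of HILPDA was found for 21 of the 27. EPAS1 in WT cells was 28.1 CPM in batch 2 and 13.0 to 17.3 CPM in the other batches. In transfected cells EPAS1 was at 2001 CPM in batch 2 and 1691 to 3580 CPM elsewhere in FL, at 1320 and 2203 to 4228 CPM in NCTAD, and at 2189 and 4078 to 5852 CPM in cIDR. Over all groups EPAS1 differed in batch 2 by −0.45 ± 0.26 (edgeR adjusted p 0.165). Fibroblast and Schwann-like markers, of which 5 of 6 passed the filter, summed to 194 to 206 CPM in batch 2 and 93.5 to 139 CPM elsewhere, mostly PDGFRB, while COL1A2 had at most 4 counts in any library. Sympathetic lineage markers, all 9 tested, summed to 6839 to 7466 CPM in batch 2 and 7238 to 8907 CPM elsewhere. Fat cell markers summed to 12 to 14.2 CPM in batch 2 and 9.40 to 13.4 elsewhere. In bulk RNA, fewer cells of a type and less RNA per cell cannot be told apart.

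Against WT, 1, 8 and 12 of the 27 hypoxia genes were called in FL, NCTAD and cIDR, all higher, beside 0.102%, 0.456% and 0.486% of all tested genes. Without the batch term edgeR called 0 of the 27 in each of these comparisons, with 3, 4 and 5 at an unadjusted p under 0.05. The list's median log2 fold changes were 0.12, 0.18 and 0.43 with the batch term and 0.12, 0.19 and 0.44 without it. BHLHE40, a clock-linked repressor, was the 1 gene called in FL, at 0.78 ± 0.08 (edgeR adjusted p 0.000308). It was at 0.80 without the batch term and at 0.76 with only the 8 FL and WT libraries, and was called in neither.

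The wider lipid pathway was described by 6 lists of 97 genes, 94 of them in the table and 78 tested. Between groups only AGPAT2, which adds the second fatty acid on the way to triglyceride, was called, in NCTAD and cIDR against WT. This was 1.28% of the 78 in each, beside 0.456% and 0.486% of all tested genes. A single call is not a result about the lists. Its CPM in batches 1 to 4 was 15.5, 21.8, 15.2 and 13.6 in WT, and 24.2, 27.2, 16.4 and 17.6 in FL. It was 29.0, 27.1, 17.2 and 19.5 in NCTAD and 25.7, 31.5, 17.9 and 20.1 in cIDR. Every construct library was above the WT library of its batch, as for 5.35% of tested genes in FL, 8.86% in NCTAD and 10.6% in cIDR, but the groups overlap. AGPAT2 rose by 0.48 ± 0.09 in NCTAD against WT (edgeR adjusted p 0.0269) and 0.51 ± 0.09 in cIDR (0.0160). In FL it differed by 0.35 ± 0.09 (0.328). AGPAT2 lost its call under several settings while its fold changed less. Without the batch term it was at 0.49 in NCTAD and 0.53 in cIDR, with an adjusted p of 1.00 in both. Without batch 2 it was at 0.52 (adjusted p 0.129) and 0.50 (0.191). With 1 library left out AGPAT2 was at 0.38 to 0.55 in NCTAD and 0.41 to 0.59 in cIDR. The call was lost in NCTAD without WT 1, 2 or 4 or NCTAD 1, 3 or 4 (batch numbers), and in cIDR without WT 1, 2 or 4 or cIDR 1, 2 or 4.

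In batch 2, 27 of the 78 tested genes were called higher and 23 lower, with a median of 0.02. Together these were 64.1%, beside 53.9% of all tested genes (27.7% higher and 26.1% lower). Each list is small, so the counts of single lists are not results about a pathway. Among coat and biogenesis genes 2 rose and 4 fell of 10. AUP1, a droplet surface protein, fell by 0.41 and TMT1A, a droplet-associated methyltransferase, fell by 0.30, while PLIN1, the perilipin of fat cells, rose by 0.82 from low counts (25 to 102 in any library). HSD17B11 was at −0.16.

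Of 13 genes of triglyceride and sterol ester synthesis, 4 rose and 5 fell, beside 27.7% and 26.1% of all tested genes. SOAT1, which esterifies cholesterol, fell by 0.47 and AGPAT5 fell by 0.32, while AGPAT4 rose by 1.00 and AGPAT2 by 0.50. Of 9 genes on the list of lipolysis and its inhibitors, 5 rose and 2 fell, in whichever role they act. MGLL, which cuts the last fatty acid from glycerol, rose by 1.30, PPARA, also on this list, by 0.40 and DDHD2 by 0.22, while ABHD12 fell by 0.56. Against batch 1 alone, AGPAT2 (0.21) and HSD17B11 (−0.09) were not called, and on the TPM scale TMT1A (−0.16), SOAT1 (−0.25), AGPAT5 (−0.17) and DDHD2 (0.11) were not.

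Fatty acid uptake and activation had 7 higher and 2 lower of 14, beside 27.7% and 26.1% of all tested genes. FABP3, a fatty acid binding protein, rose by 1.65 and the lipoprotein receptor VLDLR by 0.63, while the transporter SLC27A4 fell by 0.66 and FABP5 fell by 0.53. Synthesis and desaturation had 6 higher and 5 lower of 17, with SREBF1, a regulator of lipid synthesis, at 0.72, ACSS2 at 0.55 and INSIG2 at 0.60, and the elongase ELOVL1 at −0.62. Oxidation had 3 higher and 5 lower of 15. CPT1A, which admits fatty acids to the mitochondrion, fell by 0.78 and the carnitine carrier SLC25A20 fell by 0.51, while CPT1C rose by 0.60 and PPARD by 0.61. Against batch 1 alone, CPT1A (−0.17) and FABP3 (0.48) were not called.

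**Figure D3:**
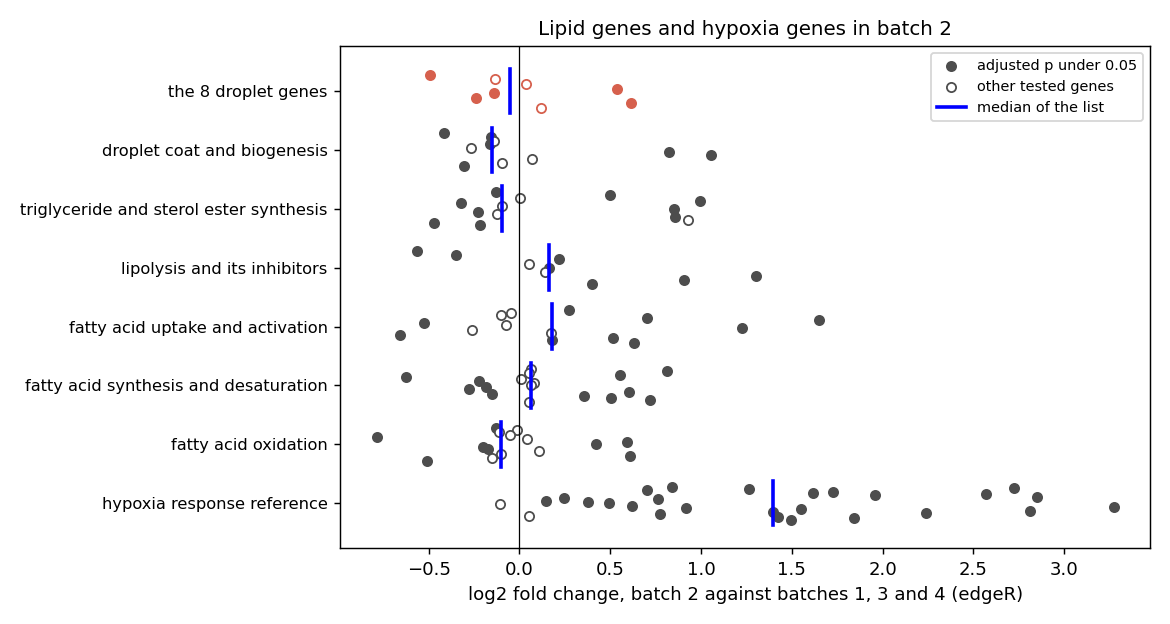
Log2 fold change of batch 2 against batches 1, 3 and 4 (horizontal axis) for each tested gene of the 8 droplet genes, the 6 lipid lists and the hypoxia list (rows), filled at an adjusted p under 0.05, with a blue bar at the list's median. The lipid lists spread to both sides of 0, and the hypoxia list has a median of 1.40 with 25 of 27 genes called higher.

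Genes whose profile over the 16 libraries was most like that of PLIN2 were FXYD6, PDHB, SUPV3L1, GLRX3 and IDH3G. The measure was the root-mean-square difference of log2 CPM profiles centred on their means. It was 0.0427 to 0.0487 for these 5, among 12366 genes considered, beside a spread of 0.130 of PLIN2 itself. Of the other 7 droplet genes LPIN1 was nearest, at 0.111, and PLIN3 farthest, at 0.387. All 5 were lower in batch 2, from −0.27 to −0.20, a pattern that the choice by likeness to PLIN2 brings with it.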

How the data were processed

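The deposited estimated counts per gene were made by the authors with Salmon, as the table's name says, and are not scaled to depth. The deposited TPM values came from the same table set. The submitters' processing notes also name fastp, STAR, featureCounts and GRCh38, without roles, and per the labels the libraries are stranded poly(A) libraries. Versions, annotation release and use of strand in counting are not given in the sources used here. Column names of the tables differ from the labels (CTRL for WT, WT for FL, NTAD for N-CTAD, and BE2c for the cell line). Groups and the name of the line follow the labels.

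Counts (15.5% of all values in the count table not exactly whole, with no tolerance) were rounded. Genes were filtered with filterByExpr by group, normalized by TMM and tested in edgeR 4.0.16 (R 4.3.3), quasi-likelihood, group and batch in 1 model over 16 libraries, Benjamini-Hochberg over 19530 genes, called at 0.05. Batch 2 was set against the mean of batches 1, 3 and 4. The batch number serves as a replicate block because the labels give it as a shared batch. Deviations from the group mean correlated between same-batch libraries of different groups at a mean r of 0.308 (24 pairs, 0.0674 to 0.712). Those of different batches correlated at −0.0945. Deviations from a group mean force that sign when same-batch deviations agree, so the second value is no separate support for the block. SE is the fold change over the root of F. CPM use TMM-scaled totals, and log2 CPM a prior count of 2. The lowest chi-square per degree of freedom between replicates was 6.89, so none are copies. Coordinates are from GENCODE 29, and promoter windows from RefSeq. An effect of depth on the differences was not tested.

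Genes named are the 8 droplet genes, EPAS1, the 4 of each list with the smallest adjusted p where called (hypoxia genes mostly as counts), and the 5 nearest to PLIN2. Cell type markers, and the 2 hypoxia genes not called in batch 2, are named beside their lists, outside this rule. Members, lists and design were chosen with earlier results of these data known. Alternatives used DESeq2 1.42.0 and limma 3.58.1 on log2(TPM + 1) and log2(TPM + 0.1). The edgeR fit was also run on simulated data, whose outcome is not given here. Figures used matplotlib 3.10.9.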

Additional observations from a re-analysis of the deposited data

Results flagged for a closer look

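In 32 groups of 4 libraries (8 genes in 4 groups), 3 values, from 2 libraries, stood farther from the rest of their group than Dixon's 95% limit allows, and chance gives about 1 in 20. That rate treats the 4 libraries of a group as alike and ignores their batches, and 2 of the 3 values are from batch 2. PLIN3 was at 19.2 CPM in the FL library of batch 2, the highest of its group, beside 19.6 CPM in WT and 20.1 CPM in cIDR of the same batch. HILPDA was at 27.4 CPM in the same library. LPIN1 was at 139.7 CPM in the cIDR library of batch 1, also the highest of its group. In the same batch it was at 147.3 CPM in WT, 124.4 CPM in FL and 138.9 CPM in NCTAD.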

How the results depend on the processing

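None of the 8 genes was called in any of the 6 group comparisons under any alternative run, and the lowest adjusted p of any of these 48 differences was 0.40. In batch 2, PLIN2, PLIN3, HILPDA and ABHD5 were called under each alternative run, and the number called of 8 was 4 to 6. Between groups, values for single genes were kept for those of the 8 whose difference exceeded its SE. Against WT, PLIN2, EPAS1 and AGPAT2 were kept as well. In batch 2 all 8 were kept, and genes named from a list were kept in the comparisons where they were named. That choice was made after the values were seen: 27 of the 48 differences changed sign under some alternative, 23 of them smaller than their SE.

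Without the replicate block the 8 genes again gave 0 calls, and genes called against WT numbered 2, 5 and 2 (FL, NCTAD, cIDR) in place of 20, 89 and 95. AGPAT2 was then at 0.49 and 0.53 in NCTAD and cIDR. Its calls were also lost on the log2(TPM + 1) scale (0.36 and 0.42) and the log2(TPM + 0.1) scale (0.38 and 0.44), and in NCTAD with only the 8 libraries compared (0.47). Over all alternatives the counts ranged from 2 to 68, 5 to 168 and 2 to 156 against WT, from 0 to 18, 0 to 46 and 0 to 21 for NCTAD against FL, cIDR against FL and cIDR against NCTAD (0, 6 and 1 as reported), and from 8313 to 11433 for batch 2. The cause of these changes was not tested.

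Signs changed on the log2(TPM + 1) and log2(TPM + 0.1) scales for LPIN1 in batch 2 (0.0069 and 0.0073), for PLIN2 in FL (−0.0024 and −0.0031) and cIDR (−0.00014 and −0.00024) against WT, and for PNPLA2 in NCTAD against WT (−0.058 and −0.063), NCTAD against FL (−0.19 and −0.21) and cIDR against NCTAD (0.097 and 0.105). DGAT2 changed sign against batch 4 alone (−0.056). Leaving out 1 library gave −0.010 to 0.071 for DGAT2 in batch 2 and −0.019 to 0.072 for PLIN2 in FL against WT. With at least 10 counts in every library, PNPLA2 passed in batch 2 (0.15) and LPIN1 did not (−0.11). LPIN1 was not called against batch 3 alone (−0.04) or batch 4 alone (−0.09).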
